A study of Mus musculus with 23 samples.

Results

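The genes described here, 36 of the interferon response and of antigen presentation, were measured in RNA from mouse hippocampus, in animals that had gone through chronic social defeat stress (CSDS) and in controls. The members were chosen by name, as the rows of both deposited tables that carry their symbols, out of 39017 genes in each table. The comparisons used 4 groups of 5 libraries each. They were CSDS libraries labelled Nrsn2 knockout (KO CSDS), control libraries with the same label (KO control), wild-type CSDS libraries (WT CSDS) and wild-type controls (WT control). Nrsn2 encodes neurensin 2, a neuronal membrane protein. CSDS is a rodent model of social stress. The labelled protocol ran for 10 consecutive days, with 5 min a day in the cage of an aggressive CD-1 mouse, a new one at each session, and a perforated divider between the animals at other times. The labels name no strain, age, sex or knockout construct, and give no separate protocol for the controls. They number the libraries but do not say that each came from its own animal, so the p-values below measure the spread between these libraries.

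Interferons are cytokines that cells release when they sense viral nucleic acid or other danger signals. Type I interferons act through the receptor chains Ifnar1 and Ifnar2 and the kinases Jak1 and Tyk2, which activate Stat2 among other factors. Stat2 is joined by Irf9 in a complex that binds the interferon-stimulated response element (ISRE) in the promoters of interferon-stimulated genes, while type II interferon acts mainly at gamma-activated sites (GAS). The targets block viral replication, tag proteins for modification and raise the machinery that shows peptides to T cells. Class I molecules, a heavy chain with beta-2 microglobulin, carry peptides cut by the proteasome and pumped into the endoplasmic reticulum by the Tap transporter. Class II molecules carry peptides from endosomes and are, in the brain, mostly found on border-associated macrophages, dendritic cells and activated microglia.

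The values are RPKM, in which read numbers are divided by gene length and library size, so levels can be compared between genes. Estimated depth was 37.03 to 50.41 M reads in KO CSDS, 25.62 to 52.25 in KO control, 37.73 to 52.77 in WT CSDS and 36.73 to 55.6 in WT control libraries. Nrsn2 itself was not lower under the knockout label, at 34.1 ± 2.34 RPKM in KO CSDS, 31.2 ± 1.93 in KO control, 29.7 ± 2.55 in WT CSDS and 29.1 ± 2.42 in WT control libraries (SD, n = 5 each). The knockout name is therefore used below only as the label of a library. Markers of hippocampal neurons were present throughout, with Slc17a7 at 282 to 339 RPKM and Prox1, a marker of dentate granule cells, at 8.90 to 14.2 RPKM. Some libraries stood apart. KO control 10 and WT control 10 had 48.2 and 56.5 RPKM of Xist, a transcript of the inactive X chromosome of females, against 0.0347 to 0.0618 in the other 18, and they had little of the Y-linked gene Ddx3y, at 0.499 and 0.163 RPKM against 9.66 to 12.97. WT CSDS 1 and WT CSDS 5 had 445 and 445 RPKM of Eef1a1, a translation elongation factor, against 756 to 875 in the other 21 libraries. They also differed from those in Rpl29, a ribosomal protein gene, at 59.9 and 61.6 RPKM against 94.0 to 125. The choice of these 4 genes followed from their values. A further 3 libraries carry labels that contradict each other, control in the title and CSDS in the treatment field, and were left out of every comparison.

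Promoters of 4 members are shown because the values below turn on Ifit3, Ifit3b and B2m, with Ifit1 as their cluster neighbour. They are the RefSeq windows of build GRCm38.p6 from 250 bases before to 50 after the start of the gene, 5′ to 3′ on the strand of the gene, with matches to the ISRE core in capitals. Promoter entries were matched for 29 of the 36 members.
Ifit3 (chr19:34583279-34583578, plus strand): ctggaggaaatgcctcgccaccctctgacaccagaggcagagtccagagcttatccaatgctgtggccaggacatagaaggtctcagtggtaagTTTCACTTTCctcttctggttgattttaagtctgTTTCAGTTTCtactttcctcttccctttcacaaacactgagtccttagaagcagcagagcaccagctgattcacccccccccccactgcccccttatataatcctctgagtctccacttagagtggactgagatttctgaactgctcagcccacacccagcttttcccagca
Ifit3b (chr19:34607707-34608006, plus strand): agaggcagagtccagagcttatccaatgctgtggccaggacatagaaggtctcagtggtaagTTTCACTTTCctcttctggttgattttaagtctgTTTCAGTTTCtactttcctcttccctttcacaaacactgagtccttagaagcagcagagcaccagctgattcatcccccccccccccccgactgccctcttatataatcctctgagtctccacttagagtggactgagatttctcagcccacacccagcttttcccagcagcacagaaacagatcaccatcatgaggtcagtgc
Ifit1 (chr19:34640639-34640938, plus strand): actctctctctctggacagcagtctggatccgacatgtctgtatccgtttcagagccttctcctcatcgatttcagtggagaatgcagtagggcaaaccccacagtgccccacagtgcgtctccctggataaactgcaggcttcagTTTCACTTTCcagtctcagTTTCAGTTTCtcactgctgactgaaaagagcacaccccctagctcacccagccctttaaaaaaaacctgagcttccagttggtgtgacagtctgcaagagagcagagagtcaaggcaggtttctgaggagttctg
B2m (chr2:122147437-122147736, plus strand): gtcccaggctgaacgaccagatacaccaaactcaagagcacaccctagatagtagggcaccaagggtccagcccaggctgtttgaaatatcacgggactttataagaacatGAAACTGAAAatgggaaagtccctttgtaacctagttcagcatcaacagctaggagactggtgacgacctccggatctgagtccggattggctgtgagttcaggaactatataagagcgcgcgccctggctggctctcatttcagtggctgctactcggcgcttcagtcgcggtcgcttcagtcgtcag

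The ISRE core searched was GAAANNGAAA, on both strands and with overlapping matches counted. These 29 members have 34 windows, since Gbp3, H2-K1, Ifit2, Irf1 and Irf9 have more than one. The core was found in 13 of the 34 windows, each of a different member, and in 3.44% of 32851 mouse promoter windows of the same 300 bases. The 13 were H2-T23, B2m, Ifit1, Ifit3, Ifit3b, Ifitm3, Stat2, Bst2, Isg15, Gbp2, Gbp3, Ifih1 and Ddx58. Ifit1, Ifit3 and Ifit3b each held 2 matches with the same letters, TTTCACTTTC and then TTTCAGTTTC, which are the core read on the other strand. The first match began 156 bases before the start of Ifit3, 188 before that of Ifit3b and 104 before that of Ifit1. In B2m the single match, GAAACTGAAA, began 139 bases before the start. The GAS letters TTCNNNGAA were found in 5 of the 34, those of Psmb8, Ifit2, Ifitm3, Irf1 and Bst2, and in 8.3% of all windows. Compared position by position at an offset of 32 bases, without gaps, the windows of Ifit3 and Ifit3b matched at 75.0% of 268 bases. The printed letters are the same from the start of the Ifit3b window, through both ISRE matches, to just before a long run of c. That run differs in length and shifts the later positions, so the 75.0% understates how alike the windows are. Both kinds of match describe letters in a window and not binding.

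All 36 members were above 0 in every library, and their levels spanned a wide range. Over the 20 libraries, 5 members averaged at least 10 RPKM and 12 averaged under 1 RPKM. B2m, the light chain shared by class I molecules, was the most abundant, between 45.7 and 82.1 RPKM. Ifi27 had 15.3 to 34.9 RPKM. Psmb10, a catalytic subunit of the immunoproteasome, had 11.5 to 16.7 RPKM. Psmb9, another such subunit, had 0.208 to 0.549 RPKM, and Nlrc5, the transactivator of class I genes, had 0.106 to 0.258 RPKM. Both fell below the mean of 0.5 RPKM required for testing, so 34 members were tested. Psmb9 rested on about 20 to 105 reads per library and Nlrc5 on about 31 to 96, against about 1344 to 3691 for B2m.

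Members tended to be high or low together in a library. KO CSDS 3 was the highest of its group for 25 of the 36 members and KO CSDS 4 the lowest for 18. Among KO controls, library 10 was highest for 29 members and library 7, the shallowest, was lowest for 32. WT CSDS 5 was highest for 30 members. Among WT controls, library 10 was highest for 25 and library 6 lowest for 25. The lowest WT CSDS library was number 2 for 16 members and number 4 for 14. Members that are high or low in the same libraries are not independent of each other.

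**Figure D1:**
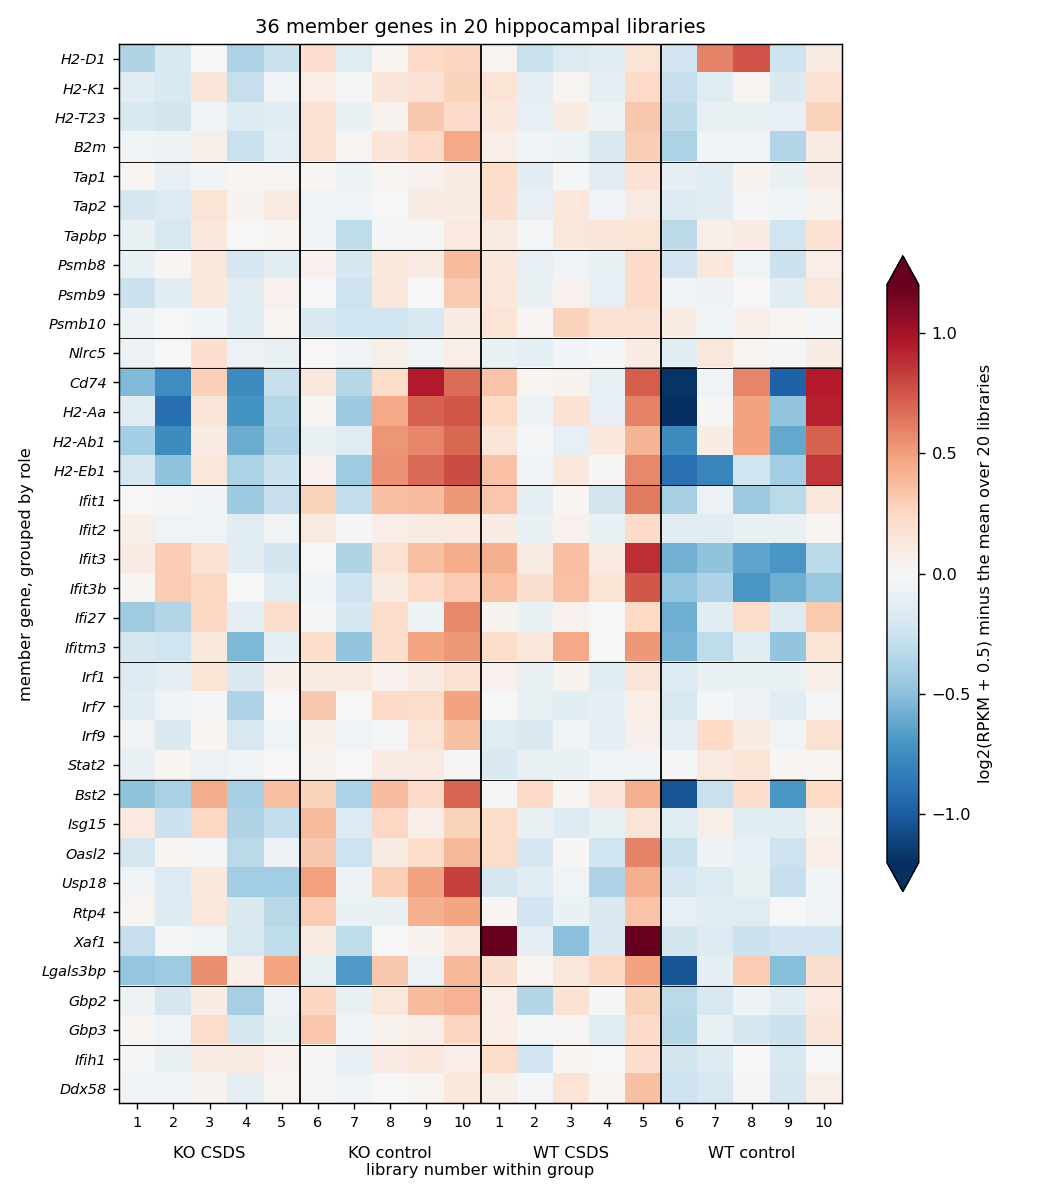
Each row is a member gene, grouped by role, and each column a library, in the order KO CSDS, KO control, WT CSDS, WT control. Colour gives log2(RPKM + 0.5) minus the gene's mean over the 20 libraries, red above and blue below it. Most rows of some columns share a colour, such as KO control 10 and WT CSDS 5 in red and WT control 6 and KO control 7 in blue, and the Ifit3 and Ifit3b rows are blue in all 5 WT controls.

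In WT libraries, defeat went with higher Ifit3, Ifit3b and Ifitm3 and with small changes in Psmb10 and Stat2. Of the 34 members tested, 4 rose and 1 fell after CSDS (limma on log2(RPKM + 0.5), adjusted p under 0.05 over all genes tested). Over all 18274 genes tested in WT, 9.88% were higher, 12.5% lower and 22.4% either, so the count of 4 higher was near the background. The median log2 fold change of the members was 0.14 against −0.0017 for all genes, and 31 of 34 were positive. In knockout-labelled libraries, none rose and 6 fell, among them 3 of the 4 class I genes. There 6.17% of 18259 genes were higher, 8.88% lower and 15.0% either. The median of the members was −0.21 against −0.0067 for all genes, and 30 of 34 were negative. At an unadjusted p under 0.05, 0 members were higher and 17 lower in the knockout-labelled libraries, where 13.3% of all genes were higher and 17.0% lower. In WT 5 were higher and 1 lower at that p, where 16.7% and 19.5% of all genes were. Dropping WT CSDS 1 and 5 left 2 members higher and 0 lower in WT. Leaving out 1 library at a time moved the 6 lower members of the knockout-labelled comparison to between 0 (without KO CSDS 1, KO CSDS 4 or KO control 9) and 13 (without KO control 7). The shares of all genes called in those fits are not given here. The counts alone do not set the members apart from other genes.

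**Figure D2:**
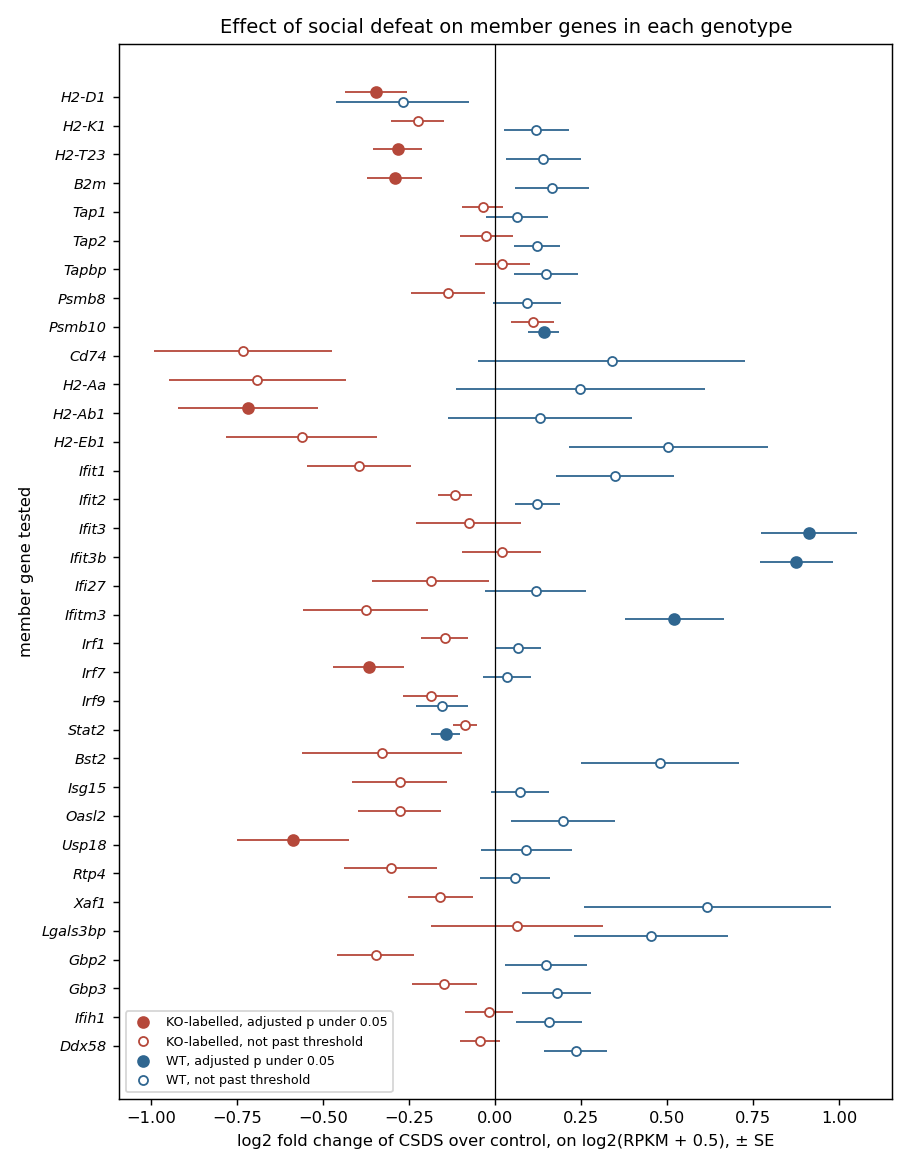
The log2 fold change of CSDS over control, with its SE, is plotted on the horizontal axis for the 34 tested members, in knockout-labelled libraries (red) and in WT libraries (blue). Filled points pass adjusted p under 0.05. Most blue points lie right of 0 and most red points left of it, with Ifit3 and Ifit3b farthest right in WT.

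The Ifit genes, whose proteins bind viral RNA or block its translation, lie in a cluster of 99.3 kb on chromosome 19 (34550694 to 34650009, mm10, as are the positions of genes below). Ifit3 (ENSMUSG00000074896, chromosome 19, 34583531 to 34588731) had 5.88, 6.88, 6.25, 4.97 and 4.64 RPKM in KO CSDS libraries, 5.45, 4.14, 6.27, 7.17 and 7.64 in KO controls, 7.50, 5.83, 7.16, 5.91 and 10.5 in WT CSDS libraries and 3.50, 3.78, 3.35, 3.18 and 4.28 in WT controls. Every WT CSDS library was above every WT control, and the KO CSDS and KO control libraries overlapped. The WT controls were the low group, and their highest value, 4.28 RPKM, was under that of every other library but KO control 7. Ifit3 rose after CSDS in WT by 0.91 ± 0.14 on the log2 scale (± SE throughout, adjusted p = 0.00198), and its change under the knockout label was −0.08 ± 0.15 (adjusted p = 0.779). Ifit3b (ENSMUSG00000062488, chromosome 19, 34607970 to 34613401), a close copy, had 3.68, 4.56, 4.36, 3.58 and 3.21 RPKM in KO CSDS libraries, 3.44, 2.95, 3.91, 4.31 and 4.57 in KO controls, 4.74, 4.18, 4.72, 4.08 and 6.38 in WT CSDS libraries and 2.47, 2.67, 2.03, 2.23 and 2.49 in WT controls. Again all 5 WT CSDS libraries were above all 5 WT controls. Its rise in WT was 0.87 ± 0.11 (adjusted p = 0.000744), and under the knockout label its change was 0.02 ± 0.12 (adjusted p = 0.939). Both genes stayed past the threshold in WT under all 20 alternative settings, WT CSDS 1 and 5 left out among them. They are not 2 independent results, since 41.1% of the 75-base windows of Ifit3 transcripts also occur in Ifit3b and 35.7% of those of Ifit3b in Ifit3, and how shared reads were counted is not given in the sources used here.

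The other Ifit genes did not pass the threshold. Ifit1 had 0.944, 0.933, 0.905, 0.568 and 0.695 RPKM in KO CSDS, 1.24, 0.676, 1.36, 1.36 and 1.58 in KO control, 1.32, 0.844, 0.966, 0.742 and 1.73 in WT CSDS and 0.595, 0.882, 0.566, 0.658 and 1.09 in WT control libraries. All groups overlapped, and its log2 fold change was −0.40 ± 0.15 under the knockout label (adjusted p = 0.102) and 0.35 ± 0.17 in WT (adjusted p = 0.168). Ifit2 spanned only 1.73 to 2.37 RPKM over all 20 libraries, with a log2 fold change of −0.12 ± 0.05 under the knockout label and 0.12 ± 0.07 in WT, neither past the threshold. Ifitm3 (ENSMUSG00000025492, chromosome 7, 141009586 to 141010770), which blocks viral entry at endosomal membranes, had 9.10, 8.86, 11.6, 7.07 and 9.65 RPKM in KO CSDS, 12.2, 7.43, 12.2, 14.8 and 15.3 in KO control, 12.3, 11.5, 14.6, 10.5 and 15.3 in WT CSDS and 6.99, 8.43, 9.59, 7.44 and 11.9 in WT control libraries. It rose in WT by 0.52 ± 0.14 (adjusted p = 0.0264), with WT control 10 above WT CSDS 2 and 4. That call was lost without WT CSDS 1 and 5 (adjusted p = 0.115), and the change under the knockout label was −0.38 ± 0.18 (adjusted p = 0.188). Ifi27 had a log2 fold change of −0.19 ± 0.17 under the knockout label and 0.12 ± 0.15 in WT, neither past the threshold.

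**Figure D3:**
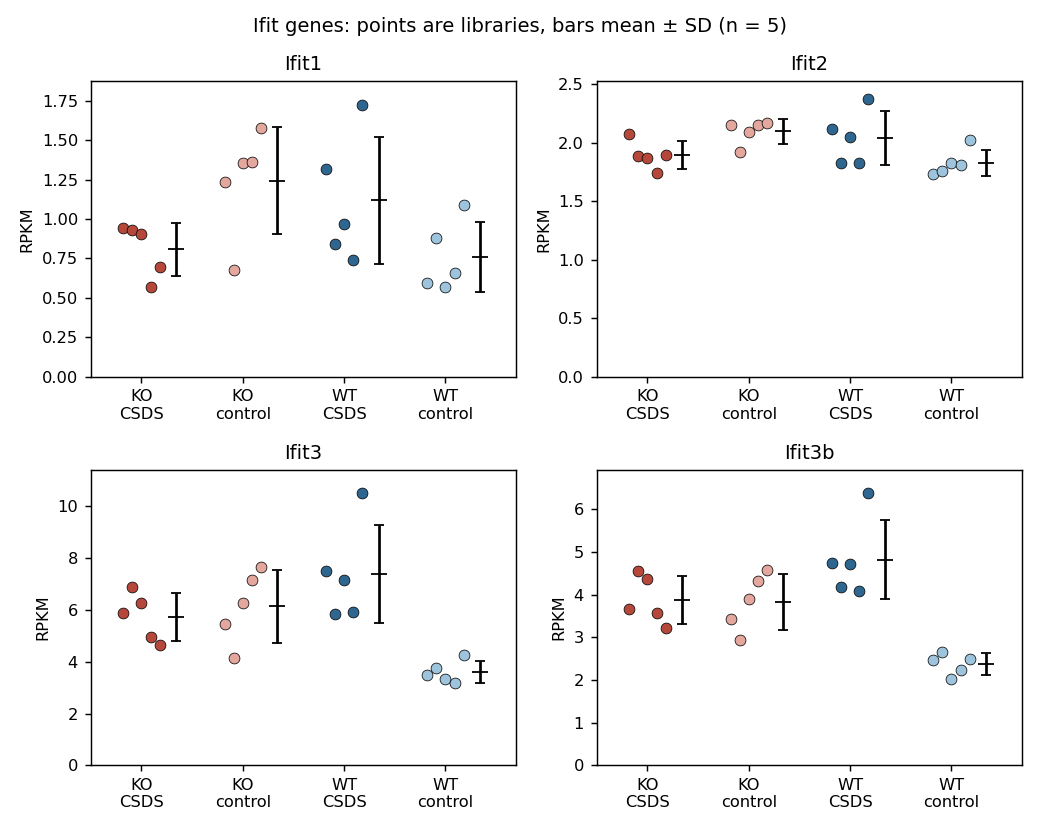
RPKM of the 4 Ifit genes on the vertical axis, by group. Each point is a library and the bars give mean ± SD (n = 5). WT CSDS libraries lie above WT controls for Ifit3, at 7.38 ± 1.89 against 3.62 ± 0.429 RPKM, and for Ifit3b, while the groups overlap for Ifit1 and Ifit2.

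Among class I molecules, B2m (ENSMUSG00000060802, chromosome 2, 122147686 to 122153083) had 57.9, 57.1, 62.7, 49.4 and 55.2 RPKM in KO CSDS, 67.9, 61.0, 65.9, 70.1 and 82.1 in KO control, 63.1, 58.2, 57.3, 52.7 and 73.2 in WT CSDS and 45.7, 58.4, 57.9, 46.7 and 63.3 in WT control libraries. KO CSDS 3 was above KO control 7, so the groups with the knockout label overlapped by that pair. After CSDS under the knockout label B2m fell by 0.29 ± 0.08 (adjusted p = 0.0327), and its change in WT was 0.16 ± 0.11 (adjusted p = 0.299). H2-D1 (ENSMUSG00000073411, chromosome 17, 35262730 to 35267499), a classical class I heavy chain, had 8.62, 9.80, 11.2, 8.58 and 9.33 RPKM in KO CSDS, 12.98, 10.1, 11.4, 13.2 and 13.5 in KO control, 11.5, 9.25, 9.97, 10.2 and 12.7 in WT CSDS and 9.53, 17.3, 19.3, 9.39 and 12.1 in WT control libraries. WT controls 7 and 8 stood well above the other WT controls. Under the knockout label it fell by 0.35 ± 0.09 (adjusted p = 0.0277), with KO CSDS 3 above KO control 7, and its change in WT was −0.27 ± 0.19 (adjusted p = 0.343). H2-T23 (ENSMUSG00000067212, chromosome 17, 36029773 to 36032855), the non-classical heavy chain Qa-1, had 2.70, 2.62, 3.02, 2.74 and 2.83 RPKM in KO CSDS, 3.59, 2.93, 3.25, 4.03 and 3.75 in KO control, 3.45, 2.89, 3.36, 2.98 and 4.03 in WT CSDS and 2.41, 2.91, 2.91, 2.89 and 3.88 in WT control libraries. It fell by 0.28 ± 0.07 under the knockout label (adjusted p = 0.0248), with only KO CSDS 3 above KO control 7, and its change in WT was 0.14 ± 0.11 (adjusted p = 0.383). The calls under the knockout label were lost under 9 of 19 alternative settings for B2m, 8 of 19 for H2-D1 and 7 of 19 for H2-T23. H2-K1, the other classical heavy chain, had a log2 fold change of −0.23 ± 0.08 under the knockout label and did not pass the threshold (adjusted p = 0.0747). Class I heavy chain genes share 3.1 to 5.91% of their 75-base windows with related genes. These levels are uncertain by an unknown amount, since it is not stated how reads from such stretches were counted.

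**Figure D4:**
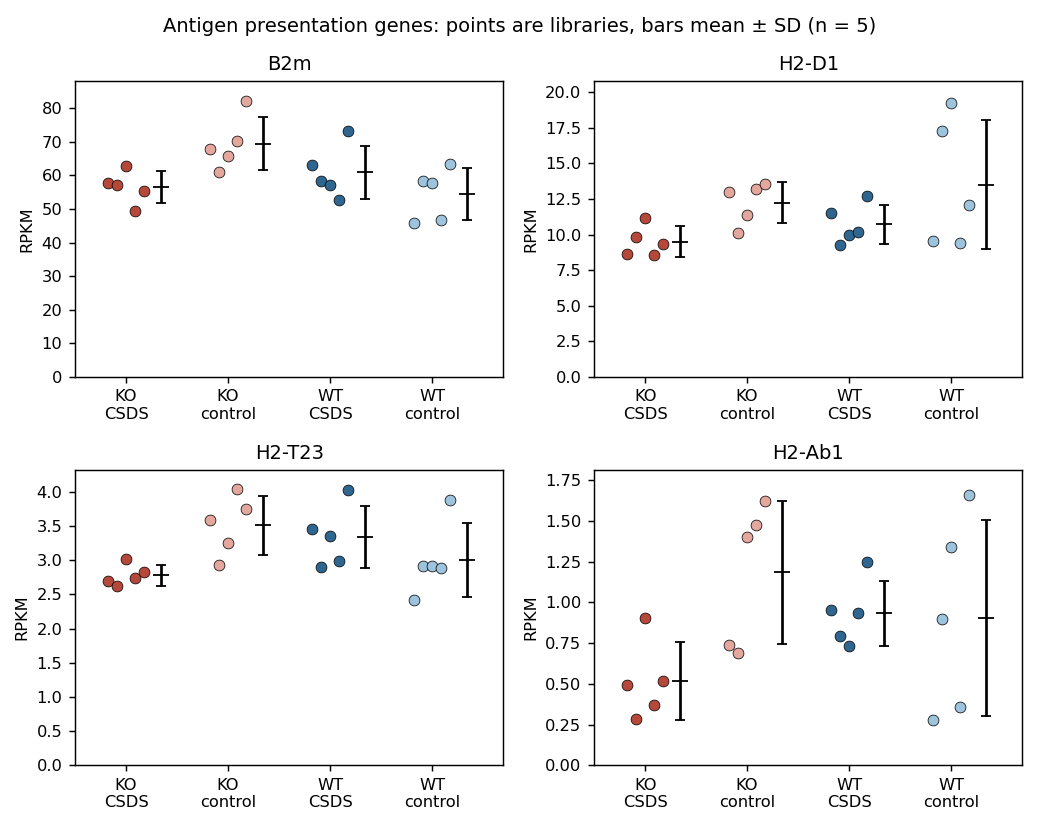
RPKM of B2m, H2-D1, H2-T23 and the class II gene H2-Ab1 on the vertical axis, by group, with a point for each library and mean ± SD (n = 5). KO CSDS libraries average lower than KO controls for all 4 genes, for example 56.5 ± 4.80 RPKM of B2m against 69.4 ± 7.87 in KO controls, and 2 WT controls lie high for H2-D1.

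Of the genes that make and load class I peptides, 3 of peptide loading and 2 of the immunoproteasome were tested. Of these, 1 passed in WT and 0 under the knockout label. Among all genes 22.4% passed in WT and 15.0% under the knockout label. The transporter subunits Tap1 and Tap2 and tapasin (Tapbp), which bridges transporter and class I molecule, had log2 fold changes of −0.04, −0.03 and 0.02 under the knockout label and of 0.06, 0.12 and 0.15 in WT, and none passed. Psmb10 (ENSMUSG00000031897, chromosome 8, 105935735 to 105938444) had 13.2, 13.7, 13.4, 12.6 and 14.0 RPKM in KO CSDS, 12.1, 11.6, 11.5, 12.01 and 14.8 in KO control, 15.5, 14.0, 16.7, 15.6 and 15.5 in WT CSDS and 14.6, 13.2, 14.4, 14.0 and 13.6 in WT control libraries. It rose in WT by 0.14 ± 0.04 (adjusted p = 0.0464), with WT CSDS 2 among the WT controls, a call lost under 13 of 20 alternative settings. Under the knockout label its change was 0.11 ± 0.06 (adjusted p = 0.276). Psmb8 had a log2 fold change of −0.14 ± 0.11 under the knockout label and 0.09 ± 0.10 in WT, neither past the threshold.

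Class II genes were low and varied widely between libraries. H2-Ab1 (ENSMUSG00000073421, chromosome 17, 34257689 to 34269419), a class II beta chain, had 0.496, 0.282, 0.907, 0.371 and 0.521 RPKM in KO CSDS, 0.737, 0.691, 1.40, 1.47 and 1.62 in KO control, 0.955, 0.794, 0.732, 0.938 and 1.25 in WT CSDS and 0.279, 0.898, 1.34, 0.360 and 1.66 in WT control libraries. It fell by 0.72 ± 0.20 under the knockout label (adjusted p = 0.0381), although KO CSDS 3 was above KO controls 6 and 7, and the call was lost under 12 of 18 alternative settings. Cd74, the invariant chain that guards the class II groove, was at −0.73 ± 0.26 (adjusted p = 0.0813), H2-Aa at −0.69 ± 0.26 (adjusted p = 0.0964) and H2-Eb1 at −0.56 ± 0.22 (adjusted p = 0.110), all log2 fold changes under the knockout label that missed the threshold. In WT the changes of these 4 genes lay between 0.13 for H2-Ab1 and 0.50 for H2-Eb1, none past the threshold. In bulk tissue, fewer cells of a type and less RNA per cell cannot be told apart.

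In each group, markers of some cells at the border of the brain were highest in the same library as the class II members. The summed RPKM of the 4 class II members was 3.21 to 7.70 in KO CSDS, 4.66 to 12.6 in KO control, 6.29 to 11.0 in WT CSDS and 2.07 to 13.7 in WT control libraries. The sum of 11 meningeal fibroblast markers, such as the collagens Col1a1 and Col3a1 and the matrix protein decorin (Dcn), was 37.5 to 68.8 RPKM in KO CSDS, 63.7 to 120 in KO control, 71.5 to 104 in WT CSDS and 32.2 to 129 in WT control libraries. In each of the 4 groups the library with the highest class II sum also had the highest sum of these fibroblast markers, and in 3 of the 4 the lowest coincided. The 8 border macrophage markers summed to 2.43 to 3.95 RPKM in KO CSDS, 3.34 to 7.87 in KO control, 4.14 to 6.86 in WT CSDS and 2.56 to 6.90 in WT control libraries. Their highest library was the class II one in all 4 groups, and their lowest was the class II one in 2 of the 4. After CSDS under the knockout label, 8 of the 11 fibroblast markers fell and none rose, with a median log2 fold change of −0.72. Of 5 border macrophage markers tested 2 fell, Mrc1 (−0.52 ± 0.15) and F13a1 (−0.51 ± 0.10), and of 12 endothelial markers 6 fell and 1 rose. Of 14 microglial markers 1 fell, C1qa (−0.21 ± 0.06), and 0 rose. Of 9 mural markers 1 fell and 0 rose, and of 9 astrocyte markers 3 fell and 1 rose. Among choroid plexus markers 0 of 7 passed, with all 7 negative and a median of −0.095, and 0 of 5 red cell markers passed. Over all genes 8.88% fell and 6.17% rose under the knockout label, so the microglial and mural counts were near the background. In WT, 0 of 11 fibroblast, 0 of 5 border macrophage and 0 of 7 choroid plexus markers passed. All of them were positive there, as were 31 of 34 members, with medians of 0.41 for fibroblast, 0.21 for border macrophage and 0.82 for choroid plexus markers. In WT, 3 of 14 microglial, 3 of 9 mural and 5 of 5 red cell markers rose, and of 9 astrocyte markers 2 rose and 1 fell. Over all genes 9.88% rose and 12.5% fell in WT. The 12 endothelial markers went both ways in WT, with 1 risen, 2 fallen, 5 positive, 7 negative and a median of −0.044. Lymphocyte markers were near 0, with 12 of them summing to 0.725 to 1.83 RPKM of which Trac gave 0.284 to 1.10, and with Cd3e at 0 in 6 libraries and at most 0.0858 RPKM. The part of these cells in the members' values was not tested.

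**Figure D5:**
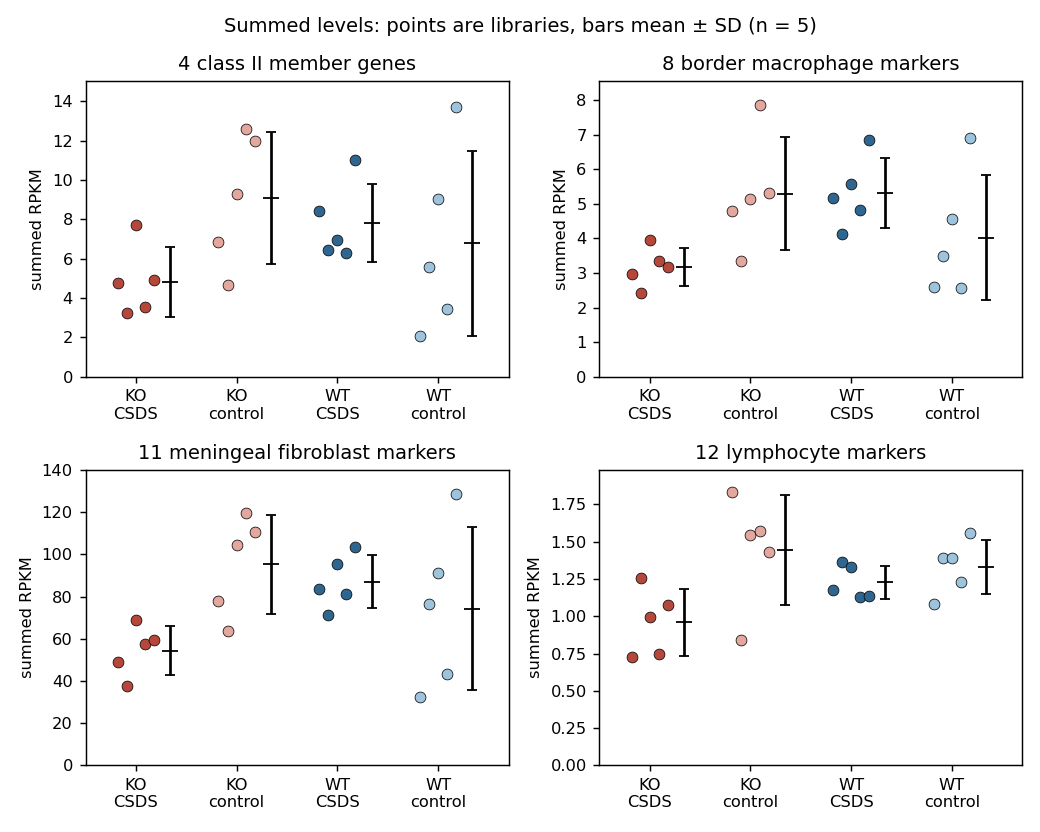
Summed RPKM on the vertical axis, by group, of the 4 class II members, 8 border macrophage, 11 meningeal fibroblast and 12 lymphocyte markers, with a point for each library and mean ± SD (n = 5). In each group the first 3 panels have the same highest library, with WT controls spread from 2.07 to 13.7 RPKM for class II and from 32.2 to 129 RPKM for fibroblast markers.

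Of the transcription factors, Irf7 (ENSMUSG00000025498, chromosome 7, 141262706 to 141266481), which amplifies type I interferon output, had 0.464, 0.521, 0.554, 0.321 and 0.558 RPKM in KO CSDS, 0.825, 0.569, 0.744, 0.734 and 0.989 in KO control, 0.562, 0.497, 0.472, 0.483 and 0.619 in WT CSDS and 0.427, 0.550, 0.511, 0.470 and 0.554 in WT control libraries. Every KO CSDS library was below every KO control. It fell by 0.37 ± 0.10 under the knockout label (adjusted p = 0.0366) and its change in WT was 0.03 ± 0.07 (adjusted p = 0.753). Its call under the knockout label was lost under 11 of 18 alternative settings. Irf7 rested on about 54 to 195 reads per library and shares 45 bp of exon with Phrf1 on the opposite strand, which these libraries cannot tell apart. Stat2 (ENSMUSG00000040033, chromosome 10, 128270559 to 128292849), a subunit of the complex that binds the ISRE, had 5.44, 5.89, 5.48, 5.61 and 5.82 RPKM in KO CSDS, 5.98, 5.82, 6.25, 6.26 and 5.84 in KO control, 5.06, 5.40, 5.41, 5.65 and 5.65 in WT CSDS and 5.73, 6.27, 6.52, 5.90 and 5.88 in WT control libraries. In WT the groups did not overlap and Stat2 fell by 0.14 ± 0.04 (adjusted p = 0.0327), a call lost under 9 of 20 alternative settings. Under the knockout label its change was −0.09 ± 0.03 (adjusted p = 0.120). Irf9, the DNA-binding partner of Stat2, had a log2 fold change of −0.19 ± 0.08 under the knockout label and −0.16 ± 0.08 in WT, neither past the threshold. Irf1, an interferon-induced transcription factor, was at −0.15 ± 0.07 under the knockout label and 0.07 ± 0.07 in WT, again past the threshold in neither. Counted over members, 2 stood above and 1 below without overlap in WT, where 7.49% and 9.65% of all genes did so. Under the knockout label 0 stood above and 1 below, where 5.45% and 7.46% of all genes did.

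Of the 7 antiviral and ubiquitin-like effectors, 1 fell under the knockout label and 0 passed in WT. Among all genes 8.88% fell under the knockout label, and 22.4% passed in either direction in WT. Usp18 (ENSMUSG00000030107, chromosome 6, 121245906 to 121270917), which removes Isg15 from proteins and dampens type I receptor signalling, had 0.611, 0.522, 0.748, 0.356 and 0.359 RPKM in KO CSDS, 1.11, 0.595, 0.899, 1.10 and 1.52 in KO control, 0.494, 0.544, 0.612, 0.385 and 1.04 in WT CSDS and 0.493, 0.523, 0.574, 0.444 and 0.620 in WT control libraries. It fell by 0.59 ± 0.16 under the knockout label (adjusted p = 0.0352), with KO control 7 among the CSDS values, and its change in WT was 0.09 ± 0.13 (adjusted p = 0.657). Its call under the knockout label was lost under 10 of 18 alternative settings. It rested on about 43 to 222 reads per library, and 124 bp of its exons overlap Gm44148 on the opposite strand. Isg15, the ubiquitin-like modifier itself, had a log2 fold change of −0.28 ± 0.14 under the knockout label and 0.07 ± 0.08 in WT. Bst2 (tetherin), which holds budding virus at the cell surface, was at −0.33 ± 0.23 under the knockout label and 0.48 ± 0.23 in WT. Oasl2, Rtp4 and Lgals3bp had log2 fold changes of −0.28, −0.30 and 0.06 under the knockout label and of 0.20, 0.06 and 0.45 in WT. None of these 5 passed in either comparison. Xaf1, an interferon-induced partner of the apoptosis inhibitor Xiap, had 3.65, 0.994, 0.641, 0.934 and 3.81 RPKM in WT CSDS libraries, against 0.887, 0.952, 0.849, 0.881 and 0.875 in WT controls. The high values were those of libraries 1 and 5, the pair that stood apart in Eef1a1 and Rpl29, and its change was 0.62 ± 0.36 (adjusted p = 0.243). The guanylate-binding GTPases Gbp2 and Gbp3 stood at −0.35 and −0.15 on the log2 scale under the knockout label and at 0.15 and 0.18 in WT. The cytosolic RNA sensors Ifih1 (MDA5) and Ddx58 (RIG-I) stood at −0.02 and −0.04 under the knockout label and at 0.15 and 0.23 in WT, none past the threshold.

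The effect of defeat under the knockout label was set against that in WT in 1 fit over the 20 libraries. Of 34 members, 0 were higher and 1 was lower, where 0.0602% of 18263 genes were higher, 0.0876% lower and 0.148% either. The member was Ifit3b, with a difference of −0.86 ± 0.17 (adjusted p = 0.0478). Ifit3 had a difference of −0.99 ± 0.22 (adjusted p = 0.0705) and Ifitm3 of −0.90 ± 0.25 (adjusted p = 0.145). The median difference of the members was −0.37 against −0.0043 for all genes, 33 of 34 were negative, and at an unadjusted p under 0.05, 0 were higher and 19 lower, where 5.39% and 6.06% of all genes were. The Ifit3b call was lost under 18 of 30 alternative settings, with differences of −0.96 to −0.69 and adjusted p of 0.0163 to 0.414. Without WT CSDS 1 and 5 no member passed, and the share of all genes called in that fit is not given here. The meningeal fibroblast markers had a median difference of −1.18 in the same fit, with 0 of 11 past the threshold.

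Among controls, the knockout label went with higher levels of 4 members. Of 34, 4 were higher and 0 lower than in WT controls, where 2.45% of 18263 genes were higher, 1.5% lower and 3.95% either. They were Ifit3 at 0.67 ± 0.16 (adjusted p = 0.0220), Ifit3b at 0.58 ± 0.12 (adjusted p = 0.00913), Irf7 at 0.34 ± 0.09 (adjusted p = 0.0333) and Usp18 at 0.56 ± 0.15 (adjusted p = 0.0494). B2m was just outside the threshold at 0.35 ± 0.10 (adjusted p = 0.0538). Every KO control was above every WT control for Ifit3b and Irf7, where 3.19% of all genes did so, and none was below throughout, against 1.77% of all genes. For Ifit3, KO control 7 was below WT control 10. The median of the members was 0.22 against 0.0076 for all genes, and 16 were higher and 1 lower at an unadjusted p under 0.05, where 10.9% of all genes were higher and 7.8% lower. The Irf7 call was lost under 11 of 19 alternative settings and the Usp18 call under 17 of 19. Of the cell type markers, 11 of 11 fibroblast markers were positive with a median of 0.44, and 5 of 11 were higher at an unadjusted p under 0.05. Border macrophage markers were positive in 5 of 5 cases with a median of 0.30, and mural markers in 8 of 9, of which Tagln passed. The part of these cells in the members' values was not tested. Leaving out 1 library at a time moved the 4 higher to between 1 (without KO control 9, WT control 6 or WT control 9) and 6 (without WT control 10), and fitting the 10 controls alone left 1. These controls are the same libraries that the CSDS effects are measured against, so the comparisons are not independent.

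After CSDS, the knockout label went with no called member. Of 34, 0 were higher and 0 lower by limma, where 1.51% of 18263 genes were higher, 0.734% lower and 2.24% either, and at an unadjusted p under 0.05, 0 were higher and 4 lower, where 9.01% and 6.97% of all genes were. The smallest p values belonged to Psmb10 at −0.20 ± 0.06 (adjusted p = 0.0669), Ifitm3 at −0.45 ± 0.17 (adjusted p = 0.194) and Ifit3b at −0.28 ± 0.12 (adjusted p = 0.249). The median was −0.14 against 0.0037 for all genes. No member's groups were free of overlap, where 2.98% of all genes stood above and 2.47% below. Red cell markers were lower in KO CSDS than in WT CSDS libraries in 5 of 5 cases, summing to 178 to 356 RPKM against 559 to 2807. Fibroblast markers were negative in 11 of 11 cases with a median of −0.73, 10 of them at an unadjusted p under 0.05, and Lum passed. Border macrophage markers were negative in 5 of 5 cases with a median of −0.40, 4 of them at that p, and microglial markers in 13 of 14, 7 of them at that p. The part of blood and of these cells in the members' values was not tested.

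Further genes of the pathway were read from lists of 128 genes, of which 125 were in the tables. The interferons themselves were at or near 0. Of 10 measured, 6 were listed at 0 in all 20 libraries, and the highest single value of any, 0.0678 RPKM, belonged to Ifne. Their receptors were expressed, Ifnar1 at 6.61 to 8.19 RPKM and Ifngr2 at 13.4 to 14.9 RPKM. Of 17 receptor and signalling genes tested, 0 rose and 4 fell after CSDS under the knockout label, among them Stat3 at −0.13 ± 0.03 (adjusted p = 0.0214). Among all genes 8.88% fell in that comparison. In WT 0 rose and 3 fell, near the 12.5% lower among all genes. They were Ptpn2, a phosphatase that acts on Jak and Stat proteins, at −0.20 ± 0.04, Jak2 at −0.15 ± 0.03 and Ifnar1 at −0.11 ± 0.03.

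Of further interferon-stimulated genes, 30 were tested under the knockout label, where 0 rose and 5 fell, against 6.17% and 8.88% of all genes. In WT 29 were tested, of which 1 rose and 1 fell, against 9.88% and 12.5% of all genes. Ifi203, a member of the HIN-200 family, fell by 0.50 ± 0.08 under the knockout label (adjusted p = 0.00347), and the GTPase Gbp7 fell by 0.33 ± 0.07 (adjusted p = 0.0143). In WT, Ifitm1, a relative of Ifitm3, rose by 0.86 ± 0.16 (adjusted p = 0.00476) and Adar, which edits adenosine in double-stranded RNA, fell by 0.20 ± 0.03 (adjusted p = 0.00120). Adar was higher under the knockout label both among controls, by 0.18 ± 0.03 (adjusted p = 0.00742), and after CSDS, by 0.29 ± 0.03 (adjusted p = 6.11e-05). The DNA sensor Aim2 was also higher under the knockout label, by 0.65 ± 0.07 among controls (adjusted p = 3.66e-05) and by 0.74 ± 0.07 after CSDS (adjusted p = 4.36e-06). Trim30a was lower in KO CSDS than in WT CSDS libraries, at −0.42 ± 0.10 (adjusted p = 0.0373).

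The genes around class I loading that fell in both labels are chaperones of the endoplasmic reticulum. Calreticulin (Calr) fell by 0.35 ± 0.05 under the knockout label (adjusted p = 0.00319) and fell by 0.48 ± 0.05 in WT (adjusted p = 0.000519). Pdia3, its disulfide isomerase partner, fell by 0.27 ± 0.06 under the knockout label and fell by 0.33 ± 0.04 in WT. Calnexin (Canx) fell by 0.13 ± 0.02 under the knockout label and fell by 0.12 ± 0.03 in WT. Of 18 genes of this list tested, these 3 fell and 0 rose under the knockout label, and in WT 3 fell and 2 rose, Psme2, a subunit of the proteasome activator, by 0.20 ± 0.05 and Mr1, which presents vitamin metabolites, by 0.45 ± 0.14. Among all genes 12.5% fell and 9.88% rose in WT, so the counts in WT are near the background. Under the knockout label 8.88% of all genes fell and 6.17% rose, beside the 3 of 18 and 0 of 18 here. Of 3 constitutive proteasome subunits that the immunoproteasome replaces, 2 rose in WT, Psmb7 by 0.14 ± 0.03 and Psmb6 by 0.11 ± 0.02, and 0 of 3 passed under the knockout label. Of 8 class II accessory genes tested, 3 rose and 1 fell in WT, among them the peptide exchange chain H2-DMa by 0.17 ± 0.04, and 1 rose and 1 fell under the knockout label. Of the other nucleic acid sensors and their adaptors, 0 of 8 passed in WT, and under the knockout label 1 of 9 did, the kinase Tbk1, which rose by 0.16 ± 0.03.

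The authors' deposited table compares control with CSDS by their own model, and its fold changes run control over CSDS. Its control means average the contradictory libraries with the controls, so its counts come from another set of libraries than the 5 against 5 above. In the authors' deposited table for WT, 6 of 36 members were higher after CSDS at a false discovery rate under 0.05, Ifit1, Ifit3, Ifit3b, Ifitm3, Xaf1 and Ddx58, and 1 was lower, Stat2. Over 17840 genes the authors' deposited table has 9.15% higher and 11.8% lower for WT. For the knockout label the authors' deposited table has 0 of 36 members higher and 0 lower, with 8.45% and 8.67% of all genes.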

How the data were processed

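Poly(A) RNA of 23 hippocampal libraries was sequenced as 75 bp single-end reads with a kit that does not keep strand, per the labels' protocols. Reads were aligned with STAR to mm10, per the submitters' processing notes. The sources used here give neither the STAR version nor the annotation or counting tool. The authors deposited RPKM values for each library, 1 table per genotype with the same 39017 genes. Besides these, the authors deposited for 17840 genes a log2 fold change, a mean log2 abundance identical in both tables, the score of a likelihood ratio test, its p-value and the false discovery rate, per the file headers.

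The 20 libraries with agreeing labels formed the groups. Genes with a mean of at least 0.5 RPKM were tested with limma 3.58.1 in R 4.3.3 on log2(RPKM + 0.5) (trend, two-sided, Benjamini-Hochberg over all genes tested, 0.05), and the fits were tested on simulated data. The added 0.5 RPKM shrinks the fold changes of low members. The CSDS effects were fitted within a genotype, the other comparisons over 20 libraries of both tables. Fold changes carry the SE and means the SD. Depth was estimated from the value of 1 read in 11945 single-exon genes, and it limits the precision of low members. Alternatives were other pseudocounts, filters, scalings, library sets and a replicate block. In each comparison every member past the threshold was named, or the 3 of smallest p, and up to 4 genes of each pathway list. Members, lists and rules were chosen with earlier results of these data known.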

Additional observations from a re-analysis of the deposited data

Results flagged for a closer look

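Single libraries stood apart from the other 4 of their group in 3 of 144 combinations of member and group, by the gap to the nearest library over the range of the group, and chance alone gives about 1 in 20. They were Psmb10 in KO control 10 at 14.8 RPKM, H2-Eb1 in WT control 10 at 3.36 RPKM and Ifit3b in WT CSDS 5 at 6.38 RPKM. Each of the 3 was the highest of its group. The effect of CSDS on Ifit3b differed between the labels, knockout label minus WT, by −0.86 on the log2 scale (limma over 20 libraries, adjusted p = 0.0478). Among the libraries with contradictory labels, Stat2 was at 6.27 RPKM in KO 11 and at 6.49 RPKM in KO 10B, just above the highest KO control at 6.26 RPKM.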

How the results depend on the processing

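Alternatives were run for the counts of members called and for 21 single-member results, not for the other members, the pathway genes or the marker lists. None of the 21 changed direction. Of their 442 alternative values, 293 kept their side of the threshold, 140 lost it and 9 gained it. Ifit3 and Ifit3b in WT passed under all 20 of theirs, with log2 fold changes of 0.72 to 0.98 and 0.73 to 0.98.

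In WT, the 4 members higher after CSDS became 2 with the contradictory library as CSDS and 2 without WT CSDS 1 and 5 (chosen after seeing the data). The 1 lower became 0 without a filter, 0 with that library as CSDS and 0 without WT CSDS 1 and 5. Leaving out 1 library at a time gave 2 to 4 higher (2 without WT CSDS 3, WT CSDS 5, WT control 7 or WT control 9) and 0 to 1 lower. Under the knockout label, the 6 lower became 2 without a filter, 3 with a minimum mean of 1 RPKM, 0 with the contradictory libraries as CSDS and 1 with them as control. The 0 higher became 1 without control 10 of each genotype. Leaving out 1 library gave 0 to 1 higher and 0 to 13 lower: 0 without KO CSDS 1, KO CSDS 4 or KO control 9, 1 without KO CSDS 2 or KO control 6, 2 without KO CSDS 5, 3 without KO control 8, 9 without KO CSDS 3 and 13 without KO control 7. For the difference of effects, the 1 lower became 0 without a filter, 0 with the contradictory libraries as CSDS, 0 with them as control, 0 without WT CSDS 1 and 5 and 0 with the replicate block, and 0 to 5 without 1 library (5 without WT control 10). Among controls, the 4 higher became 1 with the contradictory libraries as CSDS, 1 with them as control, 1 with the replicate block and 1 in the fit over 10 libraries, and 1 to 6 without 1 library (6 without WT control 10). The 0 lower became 1 with the contradictory libraries as control and 1 without control 10 of each genotype, and 0 to 1 without 1 library. After CSDS, the 0 lower became 1 in each of 4 settings, with the contradictory libraries as CSDS, as control, without control 10 of each genotype, and in the fit over 10 libraries, and 0 to 1 without 1 library. The shares of all genes called in these fits are not given beside the counts, so the counts alone do not set the members apart from other genes. The cause of these moves was not tested.

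Over all genes, calls moved as well: under the knockout label 93 genes were lower with the contradictory libraries as CSDS, against 1621. The replicate block took shared library numbers as pairs. Nothing in the labels says that a number marks a shared animal, litter or day, and same-numbered libraries did not all deviate together (r of −0.107 to 0.371, highest for controls 6, 8 and 10 at 0.21, 0.304 and 0.371), so the numbers were not taken to pair samples. Of 10 libraries 5 correlated best with their own number, a hint from the data and not from the design. Depth limits the low members most, since Psmb9, Nlrc5, Irf7, Usp18 and H2-Ab1 rested on as few as 20 to 54 reads in a library.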

Other observations

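The 3 libraries with contradictory labels had the following values, which entered no comparison. Ifit3 was at 3.41 RPKM in KO 11, 3.77 in KO 10B and 3.54 in WT 9B. Ifit3b was at 2.28 RPKM in KO 11, 2.45 in KO 10B and 2.38 in WT 9B. In KO 11 and KO 10B these values lie below all 10 knockout-labelled libraries of the groups and within the range of the WT controls. KO 11 and KO 10B were each below all 5 KO controls for 26 of the 36 members, and below all 5 KO CSDS libraries for 17 and 15. WT 9B was below all 5 WT controls for 8 members and below all 5 WT CSDS libraries for 26. The sums of the meningeal fibroblast markers were 47.7 RPKM in KO 11, 45.5 in KO 10B and 42.7 in WT 9B.

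Xaf1 was at 3.65 and 3.81 RPKM in WT CSDS 1 and 5, against 0.641 to 1.27 in the other 21 libraries. The same pair was apart in genes outside the interferon response, among them Alpk1 at 3.39 and 3.60 RPKM against 1.11 to 1.66, and Tcp11l1 at 7.39 and 7.29 RPKM against 2.58 to 4.57. The choice of these genes followed from their values.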
